A study of Bos grunniens with 18 samples.

Results

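The HSP70 genes encode ATP-driven chaperones that bind unfolded stretches of other proteins and release them for folding, transport or degradation. The family examined here comprised HSPA1A, HSPA6, HSPA8, HSPA5, HSPA13, HSPA9 and HSPA4. Members were the rows of the deposited gene table whose symbol matched one of these names, which gave 7 genes of 18467, each on a single identifier. N6-methyladenosine (m6A), a methylation of messenger RNA that affects its decay and translation, had been mapped with an m6A antibody and sequencing (MeRIP-seq) in the epididymis of the yak (Bos grunniens). This duct stores sperm and lets them mature, and runs through a head (caput), a body (corpus) and a tail (cauda). All groups came from healthy adult male yaks aged 4 years, 6 in all, with no treatment named, and comprised 3 RIP (antibody-enriched) and 3 input libraries for each of the caput, corpus and cauda, 18 libraries in total.

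Cytosolic HSP70 proteins work with HSP40 co-chaperones, which deliver clients, and with nucleotide exchange factors, which release them, while other family members serve the endoplasmic reticulum or the mitochondria. In cultured mouse cells, heat shock is known to raise m6A in the leader of Hspa1a mRNA, where the mark favours translation without the cap. HSPA1A and HSPA6 are heat-inducible, and HSPA8 is their constitutive relative. Copies of HSPA1A are nearly identical in mammals, so reads of this gene can be shared between copies. The symbol HSPA1B was on 0 rows of the gene table.

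The values come from 1 candidate list per region and from 3 tables in which the authors compared pairs of regions. In these tables a site is a whole peak of enriched RNA. A site was called at an adjusted p under 0.05 per the authors' deposited table. The tables hold no value per library, so no SD can be given and the read depth behind a site is unknown. Positions are as in the authors' tables, on a genome build that the sources used here do not name, and exons and untranslated regions were therefore not assigned. The labels do not tie libraries to animals, so the authors' p-values may rest on technical spread alone. The sources used here do not say whether these folds are relative to input RNA, so methylation and transcript abundance cannot be told apart. In whole-tissue samples, fewer cells of a type and less RNA per cell cannot be told apart either. Of 22 listed epididymal secretory genes, 16 had a symbol in the gene table. Of these, 6 (ADAM7, ADAM28, CLU, CRISP1, CRISP2 and ELSPBP1) had a site in at least 1 comparison. So did 9 of 12 sperm and spermatid genes, 5 of 5 smooth muscle genes and 4 of 4 leukocyte genes. Genes of other cells thus had sites too, and these counts do not identify the tissue.

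The family had 27 sites, counted per comparison, and 2 of them were called, both lower. A site of HSPA6 was lower in the corpus than in the caput, and a site of HSPA1A was lower in the cauda than in the caput. Sites of HSPA13, HSPA9 and HSPA4 were compared in all 3 pairs of regions, and none was called. HSPA5 had a site in the comparison of cauda with caput alone, and HSPA8 had a site in the comparison of cauda with corpus alone. In the comparison of corpus with caput, 1 of 10 family sites was called, against 2.98% of all 14061 sites per the authors' deposited table. In the comparison of cauda with caput, 1 of 8 was called, against 2.27% of all 13826 sites per the authors' deposited table. In the comparison of cauda with corpus, 0 of 9 were called, against 1.96% of all 13917 sites per the authors' deposited table. Counts of 0 and 1 among so few sites cannot be set apart from these background shares.

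Without adjustment, 2 of 10 family sites for corpus over caput had p under 0.05 per the authors' deposited table, where 16.4% of all sites passed. By the same threshold, 3 of 8 sites passed for cauda over caput (17.2% of all sites) and 1 of 9 for cauda over corpus (16.4% of all sites) per the authors' deposited table. The additional sites were those of HSPA9 in the first comparison, HSPA13 and HSPA4 in the second and HSPA6 in the third.

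**Figure D1:**
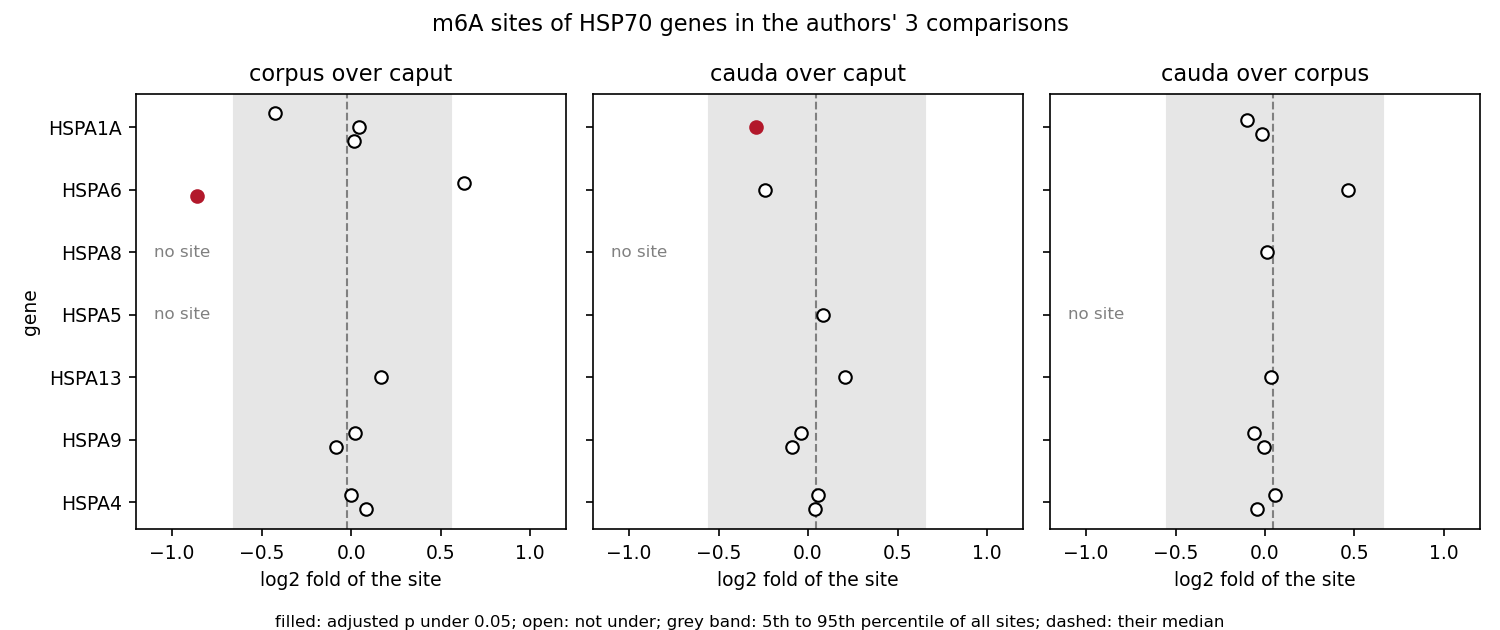
Log2 fold (x axis) of every HSP70 family site in the authors' 3 comparisons (panels), by gene (rows), each point being 1 site. Filled points mark the 2 called sites, HSPA6 at -0.86 for corpus over caput and HSPA1A at -0.29 for cauda over caput, the grey band spans the 5th to 95th percentile of all sites and the dashed line their median.

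Most family sites, counted per comparison, differed little between regions. The absolute log2 fold was under 0.1 in 6 of 10 sites for corpus over caput, where 26.7% of all sites were that small per the authors' deposited table. It was under 0.1 in 5 of 8 sites for cauda over caput (23.9% of all sites) and in 7 of 9 for cauda over corpus (25.5% of all sites) per the authors' deposited table. Both sites of HSPA9 and both of HSPA4 were under 0.1 in every comparison, and no HSPA6 site was. The same stretches thus recur in these counts, and the comparisons share libraries, so the counts are not independent. The median log2 fold of the family sites was 0.017, -0.0012 and -0.0046 in these 3 comparisons, beside medians of -0.020, 0.043 and 0.046 over all sites per the authors' deposited table. The plot of folds by gene shows this narrow spread, with HSPA6 and HSPA1A farthest from the middle. Family peaks were also longer than most, with median lengths of 470, 694.5 and 394 bases, where the median of all sites was 251 bases per each of the authors' deposited tables. The part of peak length in the small folds was not tested.

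HSPA1A (ENSBGRG00000017349), the heat-inducible cytosolic chaperone, carried its sites on chromosome 24, plus strand. The called site ran from 7615709 to 7616499, with a log2 fold of -0.29 for cauda over caput (adjusted p = 0.0046 per the authors' deposited table). That is a ratio of 0.817, so the value fell by 18.3% per the authors' deposited table. The difference was small beside those of other called sites, though not beside those of all sites. Of all sites in this comparison, 63.6% had a smaller absolute log2 fold, 15.4% had a lower log2 fold and 0.477% had a lower p per the authors' deposited table. Among the 314 called sites, whose median absolute log2 fold was 0.625, 53 had a smaller absolute log2 fold than HSPA1A per the authors' deposited table.

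The candidate lists divide this called stretch between the regions. In the cauda list a peak ran from 7616202 to 7616499 and held 6 candidate adenosines, with a best score of 0.561. In the caput list a peak ran from 7615709 to 7616153 and held 9 candidates, with a best score of 0.443. These peaks did not overlap: 48 bases lay between them and 0 candidates were shared. The corpus list had 0 peaks in this stretch. Such a layout was rare. Among 3477 sites of cauda over caput that had a peak in both lists and gaps of at most 10 bases, 9 had listed peaks that did not overlap (0.259%). Of the 55 called sites among them, HSPA1A was the 1 site of this kind. The count over all sites was made after the layout of HSPA1A had been seen.

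The other comparisons placed shorter sites over the same stretch. For corpus over caput, the site from 7615906 to 7616499 had a log2 fold of -0.43 (p = 0.091, adjusted p = 0.47 per the authors' deposited table). For cauda over corpus, the site from 7616104 to 7616499 had a log2 fold of -0.10 (p = 0.050, adjusted p = 0.37 per the authors' deposited table). That last value is below 0 although a peak was listed there for the cauda and not for the corpus. A listing and a fold are thus different measurements, and neither stands for the other here.

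**Figure D2:**
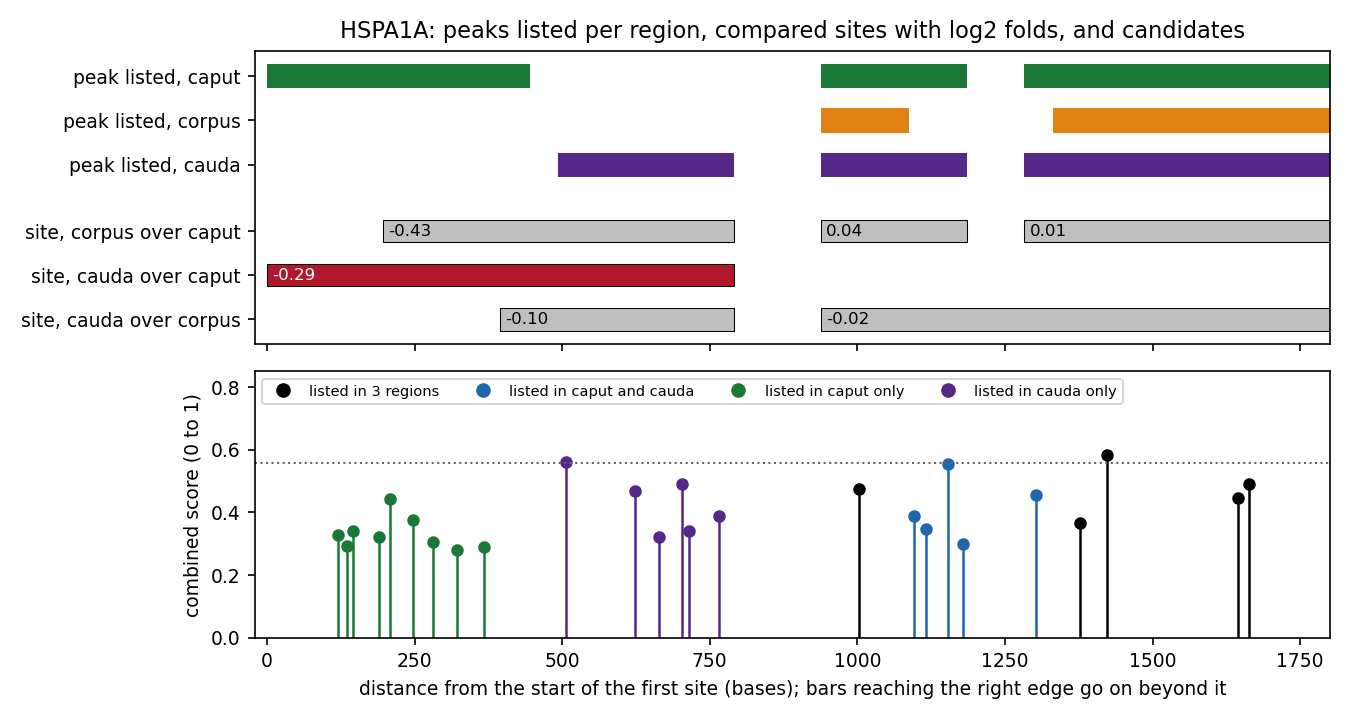
HSPA1A along the near end of its sites, in bases from the start of the first site. The upper panel shows the peaks listed for the caput, corpus and cauda and the sites of the 3 comparisons with their log2 folds (red, called), and the lower panel the combined score of each candidate adenosine, coloured by the lists that hold it, with the lowest score of an m6A class dotted. The listed peaks of the cauda and the caput lie side by side under the called site, with 48 bases between them.

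Farther along HSPA1A the lists converged. A peak from 7616647 to 7616893 was listed with the same 5 candidates for the cauda and the caput, and a shorter peak ending at 7616795, with 1 candidate, for the corpus. Its log2 fold for corpus over caput was 0.044 (adjusted p = 0.83 per the authors' deposited table). The last peak ended at 7628671 in all 3 lists and held 2 candidates classed as m6A sites in each, at 7617131 (score 0.583) and 7628572 (score 0.57). It is discontinuous: 5 candidates lay between 7617011 and 7617371, 2 lay at 7628556 and 7628572, and 11184 bases without a candidate separated the groups. Both groups were assigned to HSPA1A by the span of its site alone, and sharing of reads between copies was not tested. The log2 fold of this last peak was 0.014 for corpus over caput (adjusted p = 0.88 per the authors' deposited table). For cauda over corpus, a site joining both peaks had a log2 fold of -0.019 (p = 0.81 per the authors' deposited table). Both peaks were listed for the cauda and the caput, but the table comparing these regions had no row for them. In all, 15 of the 27 candidates of HSPA1A were listed in a single region.

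HSPA6 (ENSBGRG00000001867), in humans an inducible relative of HSPA1A that is silent without stress, lay on chromosome 3, plus strand. Its called site, from 9548214 to 9548806, had a log2 fold of -0.86 for corpus over caput (adjusted p = 0.036 per the authors' deposited table). The ratio was 0.55, so the value fell by 45.0% per the authors' deposited table. In that comparison 2.62% of all sites had a lower log2 fold, and the median absolute log2 fold of the 419 called sites was 0.666 per the authors' deposited table.

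Unlike the called site of HSPA1A, this one rested on a peak listed in every region. It started at 9548214 in all 3 lists and ended at 9549003 in the caput, 9548806 in the corpus and 9548954 in the cauda. The same 17 candidates were listed for all 3 regions, and 1 more, at 9548840, for the cauda and the caput. The best of them, at 9548356, scored 0.629 and was classed as an m6A site of high confidence. This peak held 2.28 candidates per 100 bases in the caput list, 2.87 in the corpus list, where it was shorter, and 2.43 in the cauda list. These densities were above those of 71.6%, 85.8% and 74.9% of the peaks of at most 1000 bases in the same lists. The site of the other comparisons extended to 9549003. Its log2 fold was -0.24 for cauda over caput (adjusted p = 0.95) and 0.47 for cauda over corpus (p = 0.022, adjusted p = 0.26) per the authors' deposited table. Both folds against the corpus have it as the lower region at this peak, but that of cauda over corpus was not called. These folds share the corpus libraries, so they are not independent of each other.

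Upstream, HSPA6 had a short peak listed for the corpus and not for the caput or the cauda. It ran from 9547453 to 9547601 and held 3 candidates, of which the one at 9547523 scored 0.617 and was classed as an m6A site of moderate confidence. The site had a log2 fold of 0.63 for corpus over caput (p = 0.21, adjusted p = 0.65 per the authors' deposited table). Its sign was opposite to that of the called site downstream, and the difference between them was not tested. No row compared this peak between cauda and corpus.

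**Figure D3:**
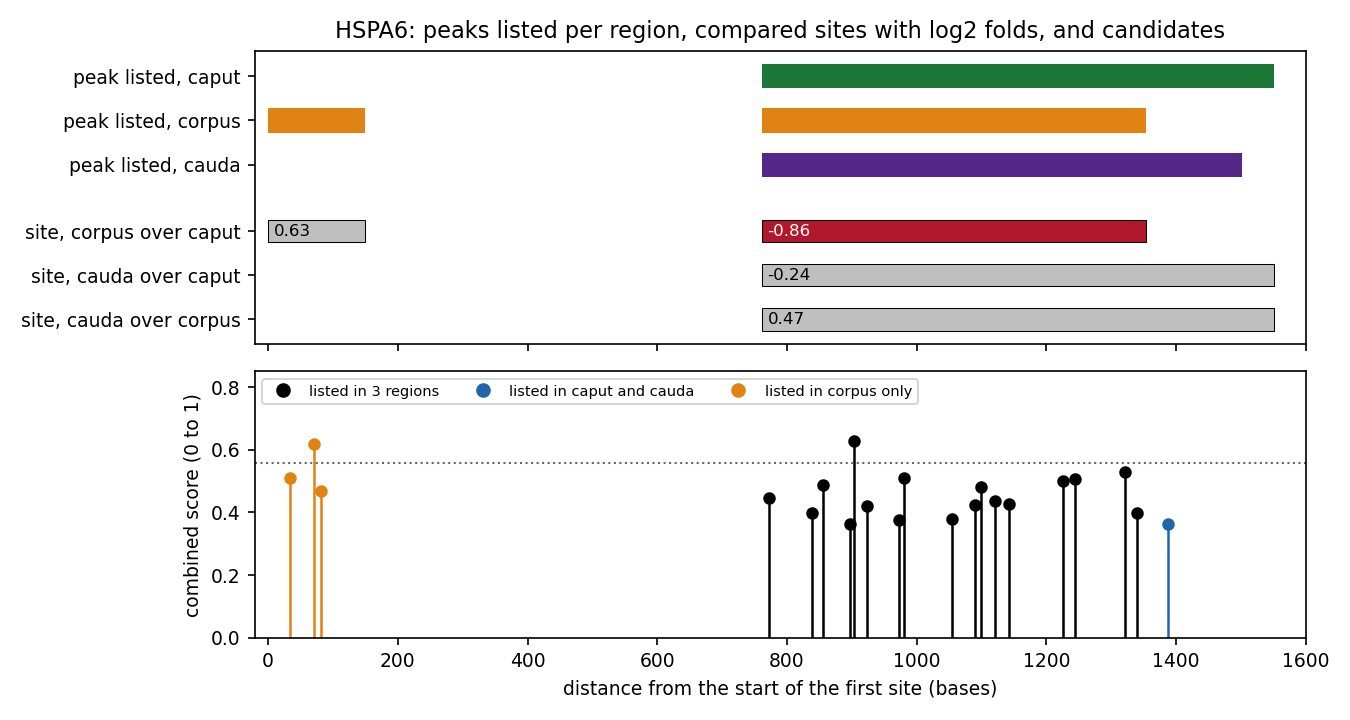
HSPA6 along its sites, in bases from the start of the upstream site. The upper panel shows the peaks listed per region and the compared sites with their log2 folds (red, called), and the lower panel the combined score of each candidate adenosine, with the lowest score of an m6A class dotted. The downstream peak was listed in all 3 regions and its site for corpus over caput was called at -0.86, while the upstream peak was listed for the corpus alone.

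Marker lists of the duct and of other cells were read in the same comparisons. For corpus over caput, 4 of 12 sites of sperm and spermatid genes were called lower and 0 higher, with log2 folds from -3.15 to 2.87 per the authors' deposited table. At an unadjusted p under 0.05, 8 of these 12 passed, 2 higher and 6 lower, per the authors' deposited table, where 16.4% of all sites did. In that comparison 1 of 10 leukocyte sites was called higher and 0 of 11 smooth muscle sites were called, with 2 and 1 at an unadjusted p under 0.05 per the authors' deposited table. For cauda over caput, 0 of 14 sperm and spermatid sites, 0 of 9 leukocyte sites and 0 of 7 smooth muscle sites were called, and 3, 1 and 1 had an unadjusted p under 0.05 per the authors' deposited table. Sperm and spermatid log2 folds for cauda over caput ran from -0.51 to 1.04 per the authors' deposited table. Of the secretory list, 5 of 9 sites were called for cauda over caput, 3 higher and 2 lower, with log2 folds from -2.26 to 0.47 per the authors' deposited table. The 2 lower sites were both in ADAM28, at -2.26 and -1.90 per the authors' deposited table. The higher ones were another ADAM28 site, at 0.13 (adjusted p = 7.8e-05), and sites of ELSPBP1 (0.33) and CRISP2 (0.47), per the authors' deposited table. For corpus over caput, 2 of 14 secretory sites were called, both lower and both in ADAM28, at -0.49 and -0.019 per the authors' deposited table. The log2 folds of the 14 ran from -0.78 to 1.34, and 4 had an unadjusted p under 0.05 per the authors' deposited table. Over all sites, 2.98% were called for corpus over caput and 2.27% for cauda over caput. At an unadjusted p under 0.05, 17.2% of all sites passed for cauda over caput. For the spermatid genes PRM1, PRM2, TNP1 and ODF1 no site was found in any comparison. Of the 13 sperm and spermatid genes listed, 12 had a symbol in the gene table, and a gene without a symbol could not be looked up. The part of these genes and cells in the HSPA6 and HSPA1A results was not tested.

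HSPA8 (ENSBGRG00000014719), the constitutive cytosolic chaperone that also strips clathrin from vesicles, had 1 site, on chromosome 13 from 53262901 to 53263097, plus strand. Its log2 fold was 0.0098 for cauda over corpus (p = 0.093, adjusted p = 0.46 per the authors' deposited table). It held 0 candidates in all 3 lists, which made HSPA8 the 1 member without a candidate inside a site.

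HSPA5 (ENSBGRG00000020026), also known as BiP, is the HSP70 of the endoplasmic reticulum. Its site lay on chromosome 9 from 4483715 to 4484514, minus strand, and had a log2 fold of 0.085 for cauda over caput (adjusted p = 0.97 per the authors' deposited table). A peak was listed there in all 3 regions, with 12 candidates for the caput, 9 for the corpus and 9 for the cauda, of which 0 were classed as m6A sites. The best score was 0.527. Although the corpus list held this peak, neither comparison with the corpus had a row for it.

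HSPA13 (ENSBGRG00000000025), a microsomal member that lacks the usual client-binding domain, had a site on chromosome 1 from 14404509 to 14405201, minus strand. Its log2 folds were 0.17 for corpus over caput (p = 0.098), 0.21 for cauda over caput (p = 0.013) and 0.034 for cauda over corpus (p = 0.47) per the authors' deposited table. The lowest adjusted p of the 3 was 0.20 per the authors' deposited table. These comparisons share libraries, so the values are not independent of each other. All 12 candidates in the span were listed in all 3 regions. The highest scores, 0.568 at 14404608 and 0.564 at 14404711, were classed as m6A sites of low confidence. The listed peak ended at 14406235 in the caput, 14405201 in the corpus and 14406186 in the cauda, so that it ran past the compared span in the cauda and the caput.

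HSPA9 (ENSBGRG00000004236), or mortalin, draws proteins into mitochondria. It had a pair of discontinuous sites on chromosome 8, minus strand. The site from 54219414 to 54220420 held 3 candidates, the same in each region, with a best score of 0.374, and 0 were classed. Its log2 folds were 0.021, -0.040 and -0.062 for corpus over caput, for cauda over caput and for cauda over corpus, with adjusted p of 0.94, 0.98 and 0.87 per the authors' deposited table. The site from 54224291 to 54227554 had 0 candidates in any list and log2 folds of -0.084, -0.091 and -0.0046 in the same order per the authors' deposited table. The first of these had p = 0.049 and an adjusted p of 0.36 per the authors' deposited table.

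HSPA4 (ENSBGRG00000000648) belongs to the HSP110 branch of the family and acts as a nucleotide exchange factor for other HSP70 proteins. Its sites lay on chromosome 8, plus strand. It carried the highest scores of the family, at 48363629 (0.782), which was listed in all 3 regions, and at 48363667 (0.724), which was listed for the caput. Both were classed as m6A sites of very high confidence. The score of 0.782 exceeded 99.9% and that of 0.724 exceeded 99.5% of the 143390 positions of the 3 lists. The site that holds 48363629 had log2 folds of 0.083, 0.038 and -0.043 for corpus over caput, for cauda over caput and for cauda over corpus per the authors' deposited table. The lowest p of the 3 was 0.022, for cauda over caput (adjusted p = 0.25 per the authors' deposited table). For that comparison the site ended at 48363695, and for the others at 48363646, so that 48363667 lay inside the longer span alone. The other site, from 48352341 to 48357056, held 9, 9 and 8 candidates in the caput, corpus and cauda, with 0 classed. It had log2 folds of -0.0019, 0.058 and 0.055 in the same order of comparisons, with a lowest p of 0.052 per the authors' deposited table.

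Over the family, 108 candidate adenosines lay inside sites, 99 in the caput list, 82 in the corpus list and 90 in the cauda list. Of the 108, 78 were listed in all 3 regions (72.2%, 95% Wilson interval 63.1 to 79.8), where the share over all positions was 45.8%. Each list held 9 peaks at family sites, and for every pair of regions 8 of the 9 overlapped a peak of the other region by at least 1 base. Over all listed peaks, that share lay between 75.2% and 79.1% in these pairs, so 8 of 9 is near the background. Within the family HSPA1A had the lowest share, with 7 of 27 in all 3 regions (25.9%, 13.2 to 44.7), against 71 of 81 for the other members (87.7%, 78.7 to 93.2). Of the 108 positions, 9 were classed as m6A sites (8.33%, 4.45 to 15.1), where the share over all positions was 18.7% (18.5 to 18.9). The 9 fell in 4 genes, with 3 in HSPA1A and 2 each in HSPA6, HSPA13 and HSPA4. The median score was 0.398 for the family and 0.44 over all positions. These shares and medians rest on unlike sets. Family positions were counted inside compared spans only, while all positions were those of whole listed peaks. Of the HSPA13 peak, for example, 12 candidates were counted, where the caput list held 15 and the cauda list 14. Positions of a peak are neighbours, so these intervals cover counting error only. The score is that of the authors' site predictor and was the same in every list that held one of the 108 positions, so it carries no measure of how strongly a region was methylated.

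**Figure D4:**
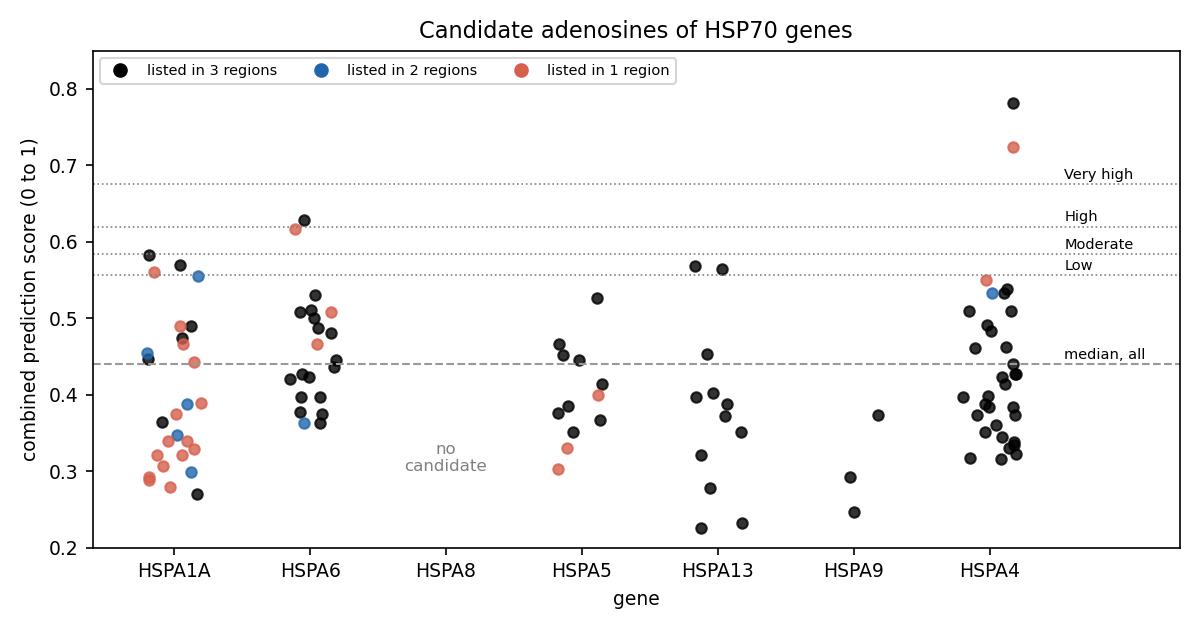
Combined prediction score (y axis) of each candidate adenosine inside sites of the HSP70 genes (x axis), coloured by the number of regional lists that hold it. Dotted lines give the lowest score of each m6A class and the dashed line the median of all positions, 0.44. HSPA4 alone reached the very high class, at 0.782 and 0.724, and most HSPA1A positions were listed in fewer than 3 regions.

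The partners of HSP70 were taken from a list of 68 genes, of which 63 had a symbol in the gene table. For corpus over caput, 2.98% of all sites were called. There, 54 of the 63 genes had 75 sites, of which 1 was called higher and 1 lower per the authors' deposited table. The lower site was that of HSPA4L, a close relative of HSPA4, with a log2 fold of -0.58 (adjusted p = 7.2e-10 per the authors' deposited table). The higher one was that of CDC37, which brings kinases to HSP90, with a log2 fold of 0.18 (adjusted p = 0.023 per the authors' deposited table). The median log2 fold of these 75 sites was 0.016 per the authors' deposited table, beside -0.020 over all sites. At an unadjusted p under 0.05, 16 of the 75 passed, 8 higher and 8 lower, against 16.4% of all sites, per the authors' deposited table.

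For cauda over caput, 0 of 80 partner sites in 51 genes were called, against 2.27% of all sites, per the authors' deposited table. At an unadjusted p under 0.05, 11 of the 80 passed, against 17.2% of all sites. The lowest p was that of DNAJB6, an HSP40 co-chaperone, with a log2 fold of 0.58 (p = 0.0015, adjusted p = 0.066 per the authors' deposited table). For cauda over corpus, 0 of 68 sites in 45 genes were called, against 1.96% of all sites, per the authors' deposited table. At an unadjusted p under 0.05, 10 of the 68 passed, against 16.4% of all sites, per the authors' deposited table. The lowest p were those of Dnaja3, a mitochondrial HSP40 (log2 fold 0.038, adjusted p = 0.089), and GRPEL1, the exchange factor of HSPA9 (0.44, adjusted p = 0.093), per the authors' deposited table.

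By role, HSP40 co-chaperones had 30, 32 and 26 sites in the 3 comparisons with 0 called in each, and 4, 4 and 2 at an unadjusted p under 0.05 per the authors' deposited table. Nucleotide exchange factors had 13, 11 and 12 sites, with HSPA4L in the first comparison as the 1 call, and 3, 1 and 2 at that unadjusted threshold per the authors' deposited table. HSP90 with its adaptors had 17, 17 and 13 sites, with CDC37 in the first comparison as the 1 call, and 3, 2 and 2 at that unadjusted threshold per the authors' deposited table. Heat shock factors, which switch the inducible genes on, had 1, 3 and 3 sites with 0 called, and 0, 1 and 1 at an unadjusted p under 0.05 per the authors' deposited table. The mitochondrial and small chaperones had 7, 7 and 6 sites with 0 called, and 2, 1 and 0 at that unadjusted threshold per the authors' deposited table. Over all sites, 2.98%, 2.27% and 1.96% were called in the 3 comparisons, and 16.4%, 17.2% and 16.4% passed without adjustment. Counts of calls this small cannot be set apart from these background shares.

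Other HSP70 proteins with a site were HSPA1L, HSPA2, HSPA12A and HSPA12B. They had 7, 10 and 8 sites with 0 called, and 4, 2 and 3 at an unadjusted p under 0.05 per the authors' deposited table. Of all sites, 16.4%, 17.2% and 16.4% passed that unadjusted threshold. HSPA1L, which in mammals is active in the testis, lay on the opposite strand of chromosome 24, with 2606 bases between its sites and those of HSPA1A. Its site from 7611423 to 7612213 had a log2 fold of 0.51 for cauda over caput (p = 0.019, adjusted p = 0.23 per the authors' deposited table), opposite in sign to the called site of HSPA1A. That difference was not tested. HSPA2, a germ-cell chaperone needed for spermatogenesis in the mouse, had the same 3 sites in each comparison, with log2 folds from -0.11 to 0.13 and 0 called (2 of 9 at an unadjusted p under 0.05) per the authors' deposited table. The largest fold of these 4 genes was that of HSPA12A for cauda over corpus, 1.06 (p = 0.0031, adjusted p = 0.10 per the authors' deposited table).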

How the data were processed

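Per the labels' protocols, poly(A) RNA was captured and fragmented before m6A immunoprecipitation and paired-end sequencing. Trimmomatic, HISAT2 and deepTools appear in the submitters' processing notes. For the peak caller, site predictor, differential test and genome build, names were not given in the sources used here. Per the file headers, the authors deposited 3 lists of candidate adenosines with a prediction score and class, and 3 comparison tables with a ratio (fold), its log2 value, a p-value and an adjusted p-value per site. The 9 expression columns of the gene table carry codes that match no label and were not used, so the planned expression test was not run.

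Members, lists and thresholds were chosen with earlier results of these data known. Named sites follow a rule: all called member sites, those of lowest p or largest absolute fold, and some partner sites. These partner sites were called or among the 6 of lowest p per comparison. Further member sites, the marker sites, the HSPA1L site near HSPA1A and the range of the HSPA2 sites were described outside this rule. Each position was counted a single time with its highest score and assigned by the span of member sites. Coordinates count from 1. Sites listed in the first region alone had median log2 folds of 0.32, 0.39 and 0.40, which fixed the direction of the folds (corpus over caput, for example). Wilson intervals used statsmodels 0.14.6 and tables pandas 2.3.3. The adjustment code was tested on simulated p-values, and the assignment of positions to spans on a small made-up example.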

Additional observations from a re-analysis of the deposited data

How the results depend on the processing

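With an unadjusted p under 0.05, family sites numbered 2 of 10 for corpus over caput, 3 of 8 for cauda over caput and 1 of 9 for cauda over corpus. Partner sites numbered 16 of 75, 11 of 80 and 10 of 68. Of all sites, 16.4%, 17.2% and 16.4% passed. Asking also for a 2-fold difference left 0 family sites in each comparison. The share of all sites that pass this limit is not given here, so that count says nothing particular to the family. With Benjamini-Hochberg adjustment recomputed over all deposited p-values, HSPA6 (0.031) and HSPA1A (0.0037) were still called. The recomputed value was below the deposited one at every family site, so this alternative was the more lenient and could not remove a call. Counting repeated lines separately gave 205, 179 and 187 candidates in the caput, corpus and cauda, by the alternative's own construction. With high confidence required, 3, 2 and 2 of the 7 classed positions in each list were left. The share over all positions at that limit is not given here either. Of the 27 alternative values computed for counts, 13 stayed within 1.5 times the reported one. Some of the 13 could not fall, such as the recomputed adjustment and the 2-fold limit for cauda over corpus, where 0 sites were called before. Spans of sites of 1 gene only gave the same counts (99, 82 and 90). The others were peak sharing at 50% mutual overlap (7, 8 and 7 peaks against 8, 8 and 8) and all positions of the listed peaks (104, 82 and 92). This last alternative was chosen after seeing the data. A restriction to exonic blocks was not run, since the tables give none. No paired analysis was possible because the tables hold no values per library, and no library could be left out for the same reason.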

Other observations

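Listed peaks also lay near the HSPA8 site without a row in any comparison table. In the cauda list, a peak on chromosome 13 from 53263573 to 53263965 began 475 bases after that site and held 9 candidates, of which the one at 53263617 (score 0.575) was classed as an m6A site of low confidence. The peak from 53264851 to 53265729 was listed for the cauda and the caput with 10 candidates and 0 classed. The corpus list had 0 peaks within 3000 bases of the site. The tables do not assign these peaks to a gene, and the nearest site of another gene, CLMP, lay 8287 bases from the closer one.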
